A study of Mus musculus with 4 samples.

Results

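Cells take up glutamine and cystine, turn cystine into glutathione, and use glutathione to keep membrane lipids from being oxidised by iron. The set described here holds 9 genes of that route: the carriers Slc1a5, Slc7a5, Slc3a2 and Slc7a11, the enzymes Gls2, Gclc, Gpx4 and Acsl4, and the transferrin receptor Tfrc. The members were given by name as genes of this route. Where a gene had several probe sets, the brightest over the 4 tumours was used. Probe sets that the platform annotation assigns to exactly 1 gene covered 8 of the 9. None named Gls2, the liver-type glutaminase, which was not analysed here. The array as a whole gave 22180 genes.

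The samples were 4 primary tumours, 1 array each, and form a single group. All carried a mutant Alk (the mutation is not named), the TH-MYCN transgene and a Stat6-/- genotype on a C57BL\6 x 129Sv/J background. In TH-MYCN mice the tyrosine hydroxylase promoter drives human MYCN in sympathetic precursors, which gives rise to neuroblastoma. The series asks how STAT6-mediated macrophage polarization bears on such tumours. The labels give neither age nor sex, and do not say whether each tumour came from a separate mouse or whether animals were pooled. Without a second group there is no contrast to test. The results below are therefore levels and their spread between tumours, with no p-value, and the spread may be technical in part.

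Glutamine enters cells through the exchanger Slc1a5 and can leave again through the heterodimer of Slc7a5 and Slc3a2 in return for leucine and other large neutral amino acids. The same heavy chain, Slc3a2, also pairs with Slc7a11 to form the cystine importer. Inside the cell cystine is reduced to cysteine, Gclc performs the rate-limiting step of glutathione synthesis, and the selenoenzyme Gpx4 spends glutathione to reduce lipid hydroperoxides. When that defence fails, iron-dependent oxidation of polyunsaturated phospholipids kills the cell, a death called ferroptosis. Acsl4 supplies those phospholipids by activating arachidonic and related acids, and Tfrc brings in transferrin-bound iron. Neuroblastoma with high MYCN has been described as dependent on glutamine and cystine and as rich in transferrin receptor.

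Values are deposited RMA values, treated as log2 units, so that 1 unit is a 2-fold difference. Detection was judged against a floor of 6.17, below which lay 95% of 1394 olfactory and vomeronasal receptor genes, and a gene whose 4-tumour mean was higher was taken as detected. A gene under this floor is undetermined rather than absent. Between 1 gene and another the values cannot be ranked, because each probe set has its own brightness. Detected genes as a group were not level across the arrays: their median deviation from their own mean was 0.12 in tumour 1, 0.04 in tumour 2, -0.09 in tumour 3 and -0.08 in tumour 4, while the median of the receptor genes was 3.85, 3.95, 4.10 and 4.10. This offset is subtracted wherever a relative deviation is given. Tumour 4 also differed from the other tumours in Xist and in Y-linked genes, and its other differences cannot be told apart from sex.

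Of the 8 measured genes 7 were detected, where 40.5% of all genes were. The exception was Slc7a11. Only Tfrc spanned 2-fold or more, 1 of 7 detected genes beside 4.26% of all detected genes. Ranges of 1.5-fold or more were found in 3 of 7 (Tfrc, Slc1a5 and Acsl4), where the share over all detected genes was 24.2%. With the array offset subtracted the range of Acsl4 was 0.44 log2 units, under 1.5-fold, and that of Slc1a5 was 0.71, still over it. The median range was 0.39 for the 7 and 0.41 for all detected genes, so most of the set varied no more than other genes did.

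**Figure D1:**
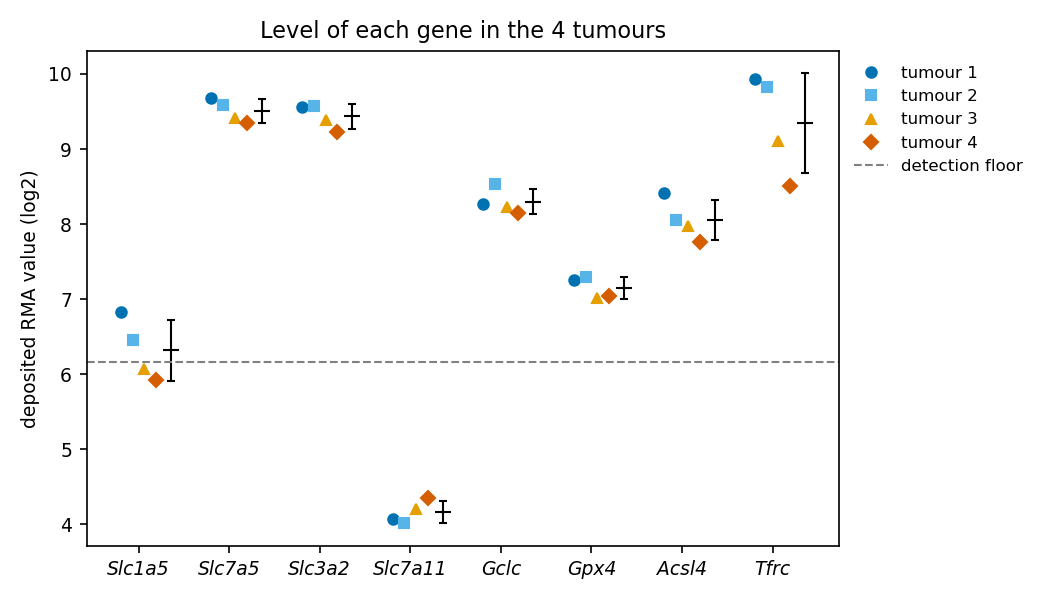
Deposited RMA value (log2) of each gene in each tumour, with the mean and SD over the 4 tumours in black beside the points and the detection floor of 6.17 as a dashed line. Slc7a11 lies under the floor in every tumour, Slc1a5 crosses it, and Tfrc has the widest spread, from 8.51 to 9.93; heights of different genes are not comparable.

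Of the measured genes only Slc7a11, the transport subunit of the cystine importer, had a mean under the floor, so its level is undetermined. Slc7a11 read 4.08, 4.02, 4.21 and 4.36 in tumours 1 to 4, or 4.17 ± 0.15 (SD, n = 4). Every tumour lay far under the floor and close to 4.01, the median of the receptor genes. The dimmer of its 2 probe sets read 3.35 ± 0.05 (SD, n = 4), between 3.31 and 3.41. Both probe sets therefore gave background-range signal, and the small differences between tumours are not read as levels. In contrast Slc3a2, the heavy chain that carries Slc7a11 to the membrane, was detected in all tumours.

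The sequence before the start site of Slc7a11 is shown because this gene is a known target of the stress factor ATF4, whose own transcript was detected. Both windows are the 250 bases upstream of a RefSeq start (GRCm38.p6), Slc7a11 at chr3:50443614-50443863 on the minus strand and Slc3a2 at chr19:8713898-8714147 on the minus strand. Capitals mark matches to TGATGNAA, the composite site of C/EBP and ATF factors, on either strand.
Slc7a11: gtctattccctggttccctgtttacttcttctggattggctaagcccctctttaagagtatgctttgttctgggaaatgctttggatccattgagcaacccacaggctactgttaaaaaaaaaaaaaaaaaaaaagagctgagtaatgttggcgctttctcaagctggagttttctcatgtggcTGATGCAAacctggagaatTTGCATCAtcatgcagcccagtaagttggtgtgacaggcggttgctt
Slc3a2: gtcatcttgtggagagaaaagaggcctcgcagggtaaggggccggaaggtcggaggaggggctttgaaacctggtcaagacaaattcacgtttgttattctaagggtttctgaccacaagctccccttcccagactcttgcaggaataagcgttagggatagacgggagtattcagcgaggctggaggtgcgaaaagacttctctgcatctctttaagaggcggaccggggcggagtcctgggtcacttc
The Slc7a11 window holds 2 matches that do not overlap, TGATGCAA from 66 bases upstream of the start and, on the opposite strand, TTGCATCA from 47 bases upstream. No match was found in the Slc3a2 window. RefSeq promoter windows, each with 50 bases past the start added, were at hand for 5 of the 9 genes (Acsl4, Gpx4, Slc3a2, Slc7a11 and Tfrc), 9 windows in all. The composite site occurred in 1 of the 9, and in 3.97% of 32851 windows over all genes. The antioxidant response element core TGACNNNGC was in 0 of 9 and in 12.4% of all windows. The E-box CACGTG, a site of MYC proteins, was in 0 of 9 and in 7.15% of all windows. These are matches of letters within short windows and say nothing about whether a factor is bound.

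Among the glutamine carriers, Slc1a5 was the variable one. It read 6.83 in tumour 1, 6.45 in tumour 2, 6.06 in tumour 3 and 5.92 in tumour 4, with a mean of 6.32 ± 0.41 (SD, n = 4). Tumours 1 and 2 were above the floor and tumours 3 and 4 below it, and the mean passed by 0.15 only. Without tumour 1 the mean no longer passed, and 6 genes of the set were detected. The highest and lowest tumours were 1.88-fold apart, a range wider than in 94.3% of detected genes. The other probe set of Slc1a5 read 5.15, 5.14, 5.61 and 5.47, under the floor throughout, so its differences between tumours are not read as levels and it does not bear out the spread. With the probe sets averaged the mean was 5.83 and the range shrank from 0.91 to 0.30, so the spread of Slc1a5 rests on the brighter probe set.

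**Figure D2:**
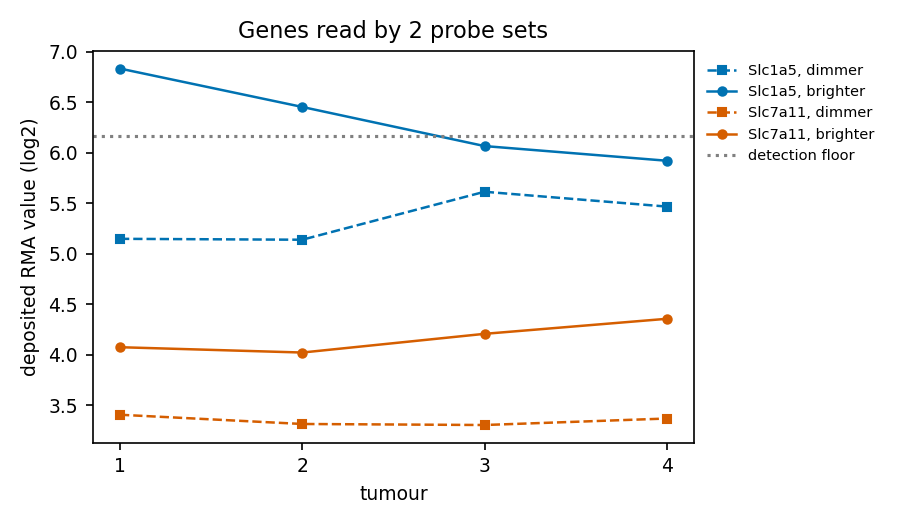
Deposited RMA value (log2) by tumour for the 2 genes with 2 probe sets each, the brighter as a solid and the dimmer as a dashed line, with the floor of 6.17 dotted; lines join the values of a probe set and the tumours have no order. The dimmer Slc1a5 probe set is under the floor in every tumour, and no Slc7a11 value exceeds 4.36.

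The leucine and glutamine exchanger was steady. Slc7a5, the transport subunit, read 9.68, 9.59, 9.41 and 9.34 in tumours 1 to 4, or 9.51 ± 0.16 (SD, n = 4). Slc3a2 read 9.56, 9.57, 9.38 and 9.22, or 9.43 ± 0.16 (SD, n = 4). Both were higher in tumours 1 and 2 than in tumours 3 and 4, in the direction of the array offset. Tumour 1 exceeded tumour 4 by 1.26-fold in either gene. With the offset subtracted the range of Slc7a5 fell from 0.34 to 0.13 and that of Slc3a2 from 0.35 to 0.22, and Slc3a2 was still highest in tumour 2.

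Gclc, the catalytic subunit of glutamate-cysteine ligase, read 8.27, 8.53, 8.23 and 8.14, or 8.30 ± 0.17 (SD, n = 4). Tumour 2 stood above the other tumours, which lay within 0.13 of each other. Its partner Gclm, the modifier subunit, followed another order. Gclm read 8.22, 8.14, 7.69 and 8.09, with tumour 3 as the low tumour and a mean of 8.04 ± 0.24 (SD, n = 4). The subunits of this enzyme thus did not share an extreme tumour. Gpx4, the peroxidase that spends glutathione, had the smallest range of the set in the deposited values. It read 7.25, 7.30, 7.01 and 7.04, or 7.15 ± 0.15 (SD, n = 4), a range of 1.22-fold, and with the offset subtracted 0.15 log2 units were left. Its mean barely passed a stricter floor of 7.14, the 99th percentile of the receptor genes.

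Acsl4, which lies on the X chromosome, read 8.42 in tumour 1, 8.05 in tumour 2, 7.98 in tumour 3 and 7.77 in tumour 4. Its mean was 8.05 ± 0.27 (SD, n = 4) and its range 1.57-fold. With the offset subtracted its range was 0.44 log2 units, under 1.5-fold. The middle tumours were nearly equal, and the spread came from the extremes: without tumour 1 the range fell to 0.28. Lpcat3, the acyltransferase that places the acids activated by Acsl4 into phospholipids, was also highest in tumour 1 and lowest in tumour 4. It read 7.72, 7.45, 6.95 and 6.92, with a mean of 7.26 ± 0.39 (SD, n = 4). Unlike Acsl4 it fell mainly between tumours 2 and 3, and its tumours 3 and 4 were nearly equal.

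Tfrc varied most. It read 9.93 in tumour 1, 9.83 in tumour 2, 9.11 in tumour 3 and 8.51 in tumour 4, with a mean of 9.34 ± 0.67 (SD, n = 4). Tumours 1 and 2 were high and close together, tumour 3 was lower and tumour 4 the lowest. The span was 2.68-fold, wider than in 98.8% of detected genes. With the array offset subtracted it was still 1.21 log2 units, with relative deviations of 0.46, 0.44, -0.15 and -0.75 in tumours 1 to 4. No tumour was an outlier by Dixon's ratio (0.42), and that ratio passed its 95% critical value in 0 of the 7 detected genes of the set, beside 3.83% of all detected genes. The 2-fold span still needed tumour 4, since without it 0 genes of the set reached 2-fold.

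Of 24 other iron handling genes measured, 15 were detected (62.5%, beside 40.5% of all genes). A 2-fold range was found in 0 of the 15 and a 1.5-fold range in 1, Slc40a1, beside 4.26% and 24.2% of all detected genes. Slc40a1, the iron exporter ferroportin, read 7.02, 7.32, 6.60 and 6.58, or 6.88 ± 0.36 (SD, n = 4). Aco1 and Ireb2 encode the proteins that bind iron-responsive elements and stabilise Tfrc mRNA. Aco1 read 8.06, 7.90, 7.56 and 7.63, with tumour 3 lowest, and Ireb2 had a mean of 8.60 and a range of 0.35. Slc25a37, which imports iron into mitochondria, was highest in tumour 3 (7.34) and lowest in tumour 4 (6.77). Fth1, the heavy chain of the storage protein ferritin, was nearly constant at 10.99 ± 0.08, and so was Fbxl5, which marks the iron-regulatory protein for breakdown, at 7.05 ± 0.10 (SD, n = 4). Ftl1, the ferritin light chain, was read only by probe sets shared with other genes and was not analysed here.

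Tfrc is also a marker of dividing cells and of red cell precursors, and the lists for both were read beside it. All 13 measured proliferation genes were detected. With the offset subtracted their median was 0.05, 0.22, -0.11 and -0.17 in tumours 1 to 4, so tumours 3 and 4 were low as for Tfrc. After that subtraction 11 of the 13 were highest in tumour 2, beside 29.2% of all detected genes, while Tfrc was about equal in tumours 1 and 2. Their summed level ran from 116.4 in tumour 4 to 123.7 in tumour 2. A summed level adds the deposited values of all measured genes of a list, detected or not, with no offset subtracted. Plk1, a mitotic kinase and the list's widest member, read 10.02, 10.41, 9.50 and 9.41. The part of proliferation in the spread of Tfrc was not tested. Of the erythroid list, 4 of 9 genes were measured and 0 detected, with means from 4.11 to 5.60 and a summed level between 18.2 in tumour 1 and 19.7 in tumour 4. These genes are undetermined, and the part of red cell precursors in the spread of Tfrc was not tested.

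**Figure D3:**
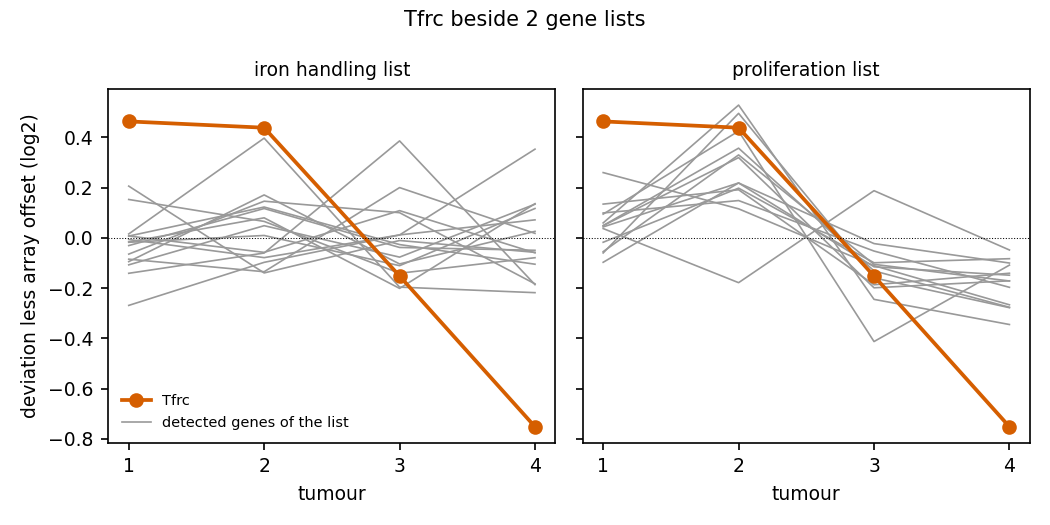
Deviation from each gene's own 4-tumour mean, less the array offset (log2), for Tfrc (orange) and for the detected genes of the iron handling list (15, left) and the proliferation list (13, right); lines join the values of a gene and the tumours have no order. Tfrc lies at -0.75 in tumour 4, lower than any grey line in either panel.

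The genes closest to Tfrc in pattern were Tipin, a replication fork protein, Ska3, a kinetochore component, and Emx2, a homeobox factor. Their root mean square difference from Tfrc, over the 4 deviations, was 0.08, 0.10 and 0.10 log2 units among 8627 detected genes compared. Tipin read 7.52, 7.63, 6.78 and 6.21. For Slc1a5 the closest were Fam169a, Camsap3 and Borcs7, at 0.03 each. For Acsl4 they were Sptlc1, a subunit of the enzyme that begins sphingolipid synthesis, Slc1a1, a glutamate and cysteine carrier, and Akap7, at 0.02 each. With 4 tumours many genes share any given order, so closeness is a description only.

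Across the set, the tumours fell in a similar order in the deposited values. The highest value was in tumour 1 for 4 of the 7 detected genes (Slc1a5, Slc7a5, Acsl4 and Tfrc) and in tumour 2 for 3 (Slc3a2, Gclc and Gpx4). Over all detected genes the highest value was in tumour 1 for 46.6% and in tumour 2 for 26.9%. The lowest was in tumour 4 for 6 of 7, all but Gpx4, where 38.6% of all detected genes were lowest. Part of this order was the offset, so the counts were taken again after subtracting it. Then 4 of 7 were highest in tumour 1, beside 18.2% of all detected genes, 3 of 7 in tumour 2, beside 29.2%, and 5 of 7 lowest in tumour 4, beside 28.9%. Gclc was then lowest in tumour 1 (-0.15) and Gpx4 in tumour 3 (-0.05), so the order was not shared by all. Slc7a5 was nearly equal in tumours 1 and 2 (0.05 and 0.04). The relative median of the 7 was 0.05, 0.09, -0.01 and -0.13 in tumours 1 to 4. These shifts are small beside that of Tfrc, and the counts rest on 7 genes.

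**Figure D4:**
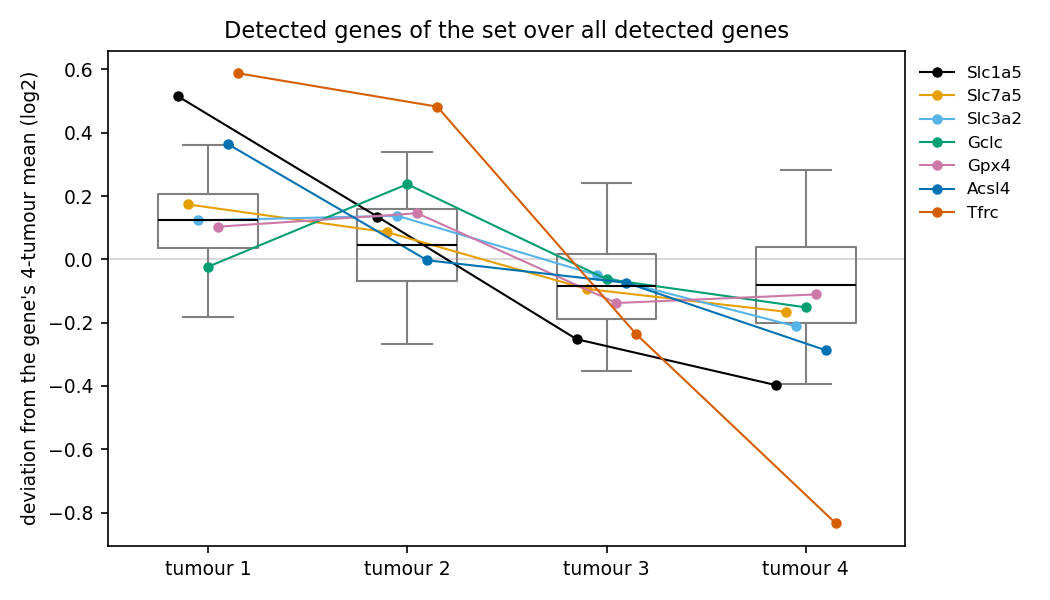
Deviation of each of the 7 detected genes from its own 4-tumour mean (log2, coloured points) over a box plot of all 8989 detected genes in that tumour, with the median, quartiles and whiskers at the 5th and 95th percentiles. The boxes move down from tumour 1 to tumours 3 and 4, and Tfrc lies outside the whiskers in tumours 1, 2 and 4; lines join the values of a gene and the tumours have no order.

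Around the set, 10 lists of further genes of the route were read, 228 genes in all. Of these 207 were measured and 146 detected (70.5%, beside 40.5% of all genes). A 2-fold span was found in 2 and a 1.5-fold span in 37 of the 146, beside 4.26% and 24.2% of all detected genes. The 2 were Scd1, which makes monounsaturated fatty acids, from 8.50 in tumour 1 to 7.33 in tumour 4, and Sephs2, which makes the selenium donor for selenoproteins such as Gpx4, from 6.85 in tumour 1 to 5.70 in tumour 4. Without tumour 4 neither reached 2-fold, with ranges of 0.88 for Scd1 and 0.57 for Sephs2. Without tumour 1 the range of Scd1 was 0.68, and that of Sephs2 was still 1.04, but the mean of Sephs2 (6.24) then lay under the floor recomputed from the other tumours (6.31). The median range of the 146 was 0.42, near that of all detected genes.

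**Figure D5:**
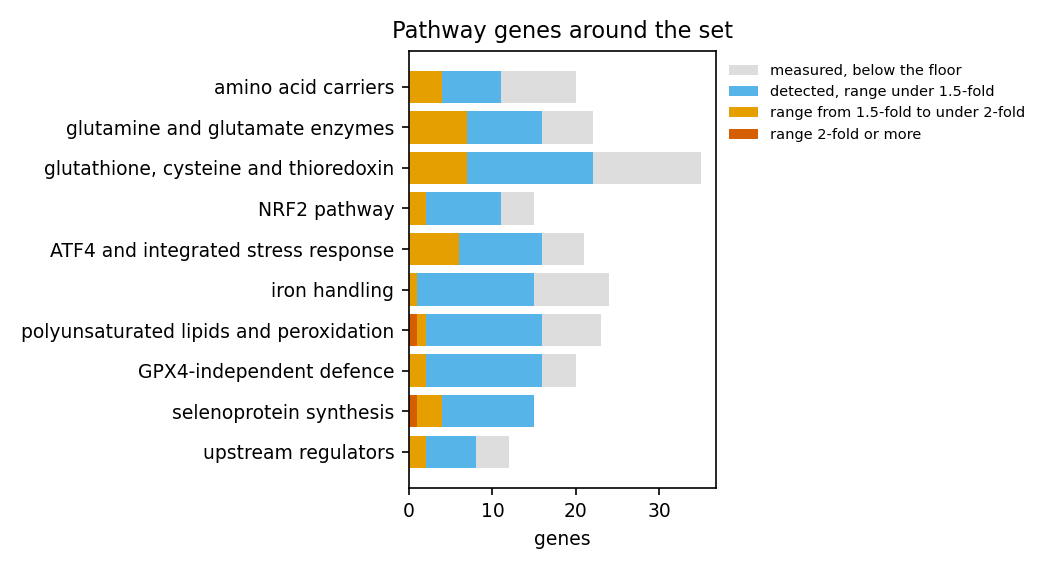
Number of measured genes in each of the 10 pathway lists, which leave out the set itself, split by colour into those under the floor, those detected with a range under 1.5-fold, and those with wider ranges. Selenoprotein synthesis is detected in full (15 of 15), and a 2-fold range occurs once in that list and once among the lipid genes.

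Of the other amino acid carriers 11 of 20 were detected, 4 of them with a 1.5-fold range. The widest were Slc7a8, a light chain that also pairs with Slc3a2, with 7.65, 7.21, 7.33 and 6.70, then Slc6a15, a neuronal neutral amino acid carrier, with 9.03, 9.03, 8.75 and 8.23, and Slc1a1 with 7.49, 7.13, 7.07 and 6.80. All 3 were lowest in tumour 4. The other carrier with a 1.5-fold range, Slc7a7, was highest there (6.87) and lowest in tumour 3 (6.18). In all, 8 of the 11 were lowest in tumour 4, beside 38.6% of all detected genes. The glutamine carriers Slc38a1 and Slc38a2 were the steadiest in the deposited values, at 10.23 ± 0.13 and 10.52 ± 0.06 (SD, n = 4). With the offset subtracted Slc38a2 ran from -0.21 in tumour 1 to 0.13 in tumour 4.

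Enzymes that use glutamine or glutamate were detected in 16 of 22 cases, 7 of them with a 1.5-fold range. Got1, the cytosolic aspartate aminotransferase, read 9.87, 9.70, 9.24 and 8.95. Asns, which makes asparagine from glutamine and is an ATF4 target, read 9.94, 9.96, 9.54 and 9.23, and Ctps, which makes CTP with glutamine nitrogen, 8.55, 8.73, 8.20 and 8.06. Tumours 3 and 4 were low in these 3. The same tumours were low in Cad, at 8.16, 8.31, 7.74 and 7.68, and in Ppat, at 8.62, 8.49, 7.98 and 7.99. Of the other members with a 1.5-fold range, Gad2, which makes GABA from glutamate, was highest in tumours 3 and 4 (both 7.06). Gmps, which makes GMP, read 8.73, 8.81, 8.18 and 8.84, with tumour 3 as the low tumour. In all, 7 of the 16 were lowest in tumour 4, beside 38.6% of all detected genes. With the offset subtracted the count was again 7, beside 28.9%. Glud1, glutamate dehydrogenase, at 8.43 ± 0.11 and Gfpt1, the entry enzyme of hexosamine synthesis, at 6.96 ± 0.08 (SD, n = 4) were the narrowest.

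Of the glutathione, cysteine and thioredoxin genes 22 of 35 were detected and 7 had a 1.5-fold range. Gpx8, a peroxidase of the endoplasmic reticulum, read 7.85, 7.31, 7.32 and 6.90. Chac2, which degrades glutathione, read 7.37, 7.17, 6.77 and 6.50, and Prdx3, the mitochondrial peroxiredoxin, 8.93, 8.93, 8.53 and 8.08. These 3 were among 11 of the 22 that were lowest in tumour 4, beside 38.6% of all detected genes. With the offset subtracted 8 of the 22 were lowest there, beside 28.9%. Srxn1, which repairs peroxiredoxins, at 7.24 ± 0.03 and Txnrd2, mitochondrial thioredoxin reductase, at 6.48 ± 0.03 (SD, n = 4) hardly moved in the deposited values. With the offset subtracted Srxn1 ran from -0.16 in tumour 1 to 0.12 in tumour 3.

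The regulators of this defence were detected with uneven spread. In the NRF2 pathway 11 of 15 were detected. Nfe2l2, which encodes NRF2, read 7.05, 6.94, 6.53 and 6.14, or 6.67 ± 0.41 (SD, n = 4), high in tumours 1 and 2 and under the floor in tumour 4. Keap1, its inhibitor, stayed at 6.69 ± 0.06 (SD, n = 4), and Hmox1, a target that frees iron from haem, was highest in tumour 2 (7.22) and lowest in tumour 3 (6.29). Cul3, the ligase scaffold that Keap1 recruits, had a range of 0.54 and the haem carrier Slc48a1 of 0.10. Of the ATF4 list 16 of 21 were detected. Atf4 was narrow, at 8.08 ± 0.10 (SD, n = 4), as was the serine tRNA synthetase Sars at 9.76 ± 0.04. Ddit4, a stress-induced inhibitor of mTORC1, was highest in tumour 3 (6.97) and lowest in tumour 2 (6.10, under the floor). Atf5, a relative of Atf4, and Ppp1r15a, which ends the stress response, were both lowest in tumour 4, at 7.20 and 6.35 respectively.

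In the deposited values Mycn did not follow the set, but its signal was near the floor. The mouse probe set read 6.60, 6.01, 6.46 and 6.89 in tumours 1 to 4, or 6.49 ± 0.37 (SD, n = 4), with tumour 4 highest, where Tfrc was lowest. Tumour 2 lay under the floor, so its low value is not read as a level. The other tumours were not far above the floor, which limits what their order can show. Whether the mouse probe set also reads the human transgene is not known. Of the upstream regulators 8 of 12 were detected, Hif1a and Bap1 the widest beside Mycn, with ranges of 0.89 and 0.42, and Mlxip and Nr1d1 the narrowest, at 0.15 and 0.17. Trp53 was not analysed here.

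Genes that supply or oxidise membrane lipids, and those that protect them without Gpx4, were detected in part. Among lipid genes 16 of 23 were detected, with Lpcat3, Scd1 and Acsl5 the widest (Acsl5, a sister of Acsl4, ran from 8.26 in tumour 1 to 7.68 in tumour 4) and Mboat2 and Pla2g6 the narrowest, with ranges of 0.06 and 0.16. All 5 measured lipoxygenase genes were under the floor, with means from 4.53 to 5.92. GPX4-independent defence had 16 of 20 detected. Aifm2, which encodes FSP1 and regenerates ubiquinol, was not, at 4.79 ± 0.06 (SD, n = 4). Gch1, which makes the antioxidant tetrahydrobiopterin and serves catecholamine synthesis too, ran from 6.86 in tumour 2 to 7.84 in tumour 3. Fdft1, of the cholesterol route, ran from 9.75 in tumour 1 to 8.95 in tumour 4, and Coq5, of ubiquinone synthesis, from 8.54 in tumour 2 to 7.98 in tumour 4. Qdpr and Coq7 were narrow, with ranges of 0.13 and 0.14. In selenoprotein synthesis Pstk, a kinase that acts on the selenocysteine tRNA, ran from 6.67 in tumour 1 to 6.02, under the floor, in tumour 4. Selenot was highest in tumour 4 (9.11), and Selenok and Trit1 had ranges of 0.13 and 0.17.

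Other cells in the tumours differed between samples and can carry these transcripts too. In bulk tissue fewer cells of a type and less RNA per cell cannot be told apart. The labels name the sternocleidomastoid muscle as the tissue, yet 0 of 8 skeletal muscle genes were detected, and 11 of 11 measured sympathetic neuroblastoma genes were. Macrophage genes (10 of 14 detected) had their low tumour in 3, with a summed level over all 14 of 94.1 there against 100.5 to 101.0 in the others. With the offset subtracted, 9 of the 10 detected macrophage genes were lowest in tumour 3, beside 39 of the 146 detected pathway genes. The share over all detected genes was not counted. Csf1r was the widest macrophage gene, from 5.64 to 6.90. Its mean of 6.21 barely passed the floor of 6.17, and tumours 3 and 4 lay under it. Fibroblast genes (8 of 10 detected) summed to 73.3, 66.4, 69.4 and 64.7 in tumours 1 to 4; Dcn was the widest, from 6.17 to 8.26. Slc1a5, Slc7a5, Acsl4 and Tfrc were also highest in tumour 1 and lowest in tumour 4. They were higher in tumour 2 than in tumour 3 (for Acsl4 not once the offset was subtracted, with relative deviations of -0.05 and 0.01). The fibroblast sum was lower in tumour 2 than in tumour 3, but single genes of that list did not all follow the sum. The part of fibroblasts was not tested. Of the endothelial list 2 of 8 were detected, of the Schwann cell list 2 of 6, of the B and plasma cell list 1 of 5 and of the T and NK cell list 0 of 6. Their widest detected genes were Cdh5 (range 0.28), Fabp7 (9.54, 8.49, 6.49 and 8.32) and Ighm (range 0.84). Prph, the widest sympathetic neuroblastoma gene, read 9.32, 8.06, 8.18 and 7.51, and was the only 1 of the 11 that was highest in tumour 1.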

How the data were processed

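Total RNA from 4 tumours was hybridised to 1-colour Affymetrix arrays. The authors deposited a value for each of 41345 probe sets in each tumour, made with RMA and Partek, per the submitters' processing notes; their versions were not given in the sources used here. The deposited values (2.47 to 13.6) are taken as log2; the base is not stated. They were used without further normalization. Array medians were 5.15 to 5.29, at most 0.22% of values were identical between 2 arrays, and the number of arrays limits the precision.

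Genes were named from the platform annotation: 23521 probe sets had 1 gene, 1814 several (not used) and 16010 were not listed. Symbols were updated by Entrez identifier through RefSeq (GRCm38.p6; 23328 matched). The probe set with the highest mean was used per gene. Of the pathway list genes 21 had no such probe set. Motifs were searched on both strands of RefSeq promoter windows.

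The set and the lists were chosen with earlier results of these data known. Named genes were the set, fixed partners, and in each pathway list the 3 widest and 2 narrowest detected genes. Also named were the 3 genes closest to each of the 3 widest of the set, and the widest detected gene of cell lists. Those named outside this rule (Xist and Y-linked genes, Ireb2, Slc7a7, Cad, Ppat, Gad2, Gmps, lipoxygenases) were chosen after their values were seen. Widest and narrowest were judged by the range in the deposited values, with the offset left in. Counting was tested on simulated arrays. Alternatives were other floors, probe set means, quantile normalization, centring, a 1.5-fold threshold and leaving out each tumour. Python 3.11.15, pandas 2.3.3 and numpy 2.4.6 were used.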

Additional observations from a re-analysis of the deposited data

Results flagged for a closer look

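Tumour 4 stood far from the others in 3 of 98 genes and second probe sets examined by Dixon's ratio, none of them in the glutamine, cystine and ferroptosis set. Chance passes about 1 in 20 such groups, but 3 of 98 cannot be set against that share. All 3, named next, were placed among the 98 after their values were seen, and none of the others passed. Xist, which coats and silences an X chromosome, stood at 10.13 in tumour 4 while tumours 1 to 3 read 3.89 to 3.95. The Y-linked genes Eif2s3y and Uty measured 3.90 and 3.89 in tumour 4, against 7.47 to 7.89 and 7.24 to 7.58. Over all detected genes 3.83% passed the same limit, and 0 of the 7 detected genes of the set did. Gmps, named above but not among the 98, passed it too, at 0.836 with tumour 3 low.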

How the results depend on the processing

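The number of detected genes in the set was 6 to 8 under every alternative. With a 1.5-fold threshold and the offset left in, the genes counted as variable were 3 in the set and 37 in the pathway lists. Leaving out a tumour gave 0 to 1 genes of the set with a 2-fold range, 0 without tumour 4, and 0 to 2 detected pathway genes. The latter count was 0 without tumour 4, and 0 without tumour 1, where Sephs2 kept a range of 1.04 but fell under the recomputed floor. A stricter floor, the receptor genes' 99th percentile, left 94 of the 146 pathway genes, 1 of them with a 2-fold range. Of the means and ranges of single genes, 103 of 112 moved by less than the SD between tumours. The 9 others were the mean and range of Slc1a5 with its probe sets averaged (5.83 and 0.30), the mean of Slc7a11 likewise (3.76), the range of Slc7a5 after centring (0.13) or quantile normalization (0.14), of Slc3a2 after quantile normalization (0.18), of Slc7a11 after centring (0.49), of Acsl4 without tumour 1 (0.28) and of Gclc without tumour 2 (0.13). The cause was not tested. Signal near background limits Slc1a5 and Slc7a11.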
